A study of Mus musculus with 12 samples.

Results

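The genes that make, move and export cholesterol were followed in mouse CD4 T cells with or without Pkm2, at rest and after stimulation of the T cell receptor. The set holds 33 genes of the 55450 in the count tables, chosen by name with earlier results of these data known. It has 8 genes of the mevalonate steps, 11 from squalene to cholesterol and 5 of the sterol sensing machinery. The others are 4 of trafficking and storage, and 5 of the LXR receptors and efflux. The first 19 are called the synthesis genes below. All 33 were found in both tables and passed the filter on low counts in every comparison.

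Naive CD4 T cells were compared in 4 groups of 3 libraries each: Pkm2 knockout (KO) stimulated, wild type (WT) stimulated, KO resting and WT resting. Every culture held human IL7 at 25 ng/mL, and stimulated cells were also plated on anti-CD3 (1 ug/mL) and anti-CD28 (2 ug/mL). The labels give the culture as 24 hours and also as overnight, and the source as spleen and lymph nodes and also as splenocytes. They state neither the knockout allele and its driver nor whether each library is a mouse of its own, so p-values measure only how much these libraries vary, and that variation may be technical.

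Cells build cholesterol from acetyl-CoA through mevalonate, farnesyl diphosphate, squalene and lanosterol. When sterols in the endoplasmic reticulum are low, SCAP carries the SREBP transcription factors to the Golgi, where they are cleaved and then switch on the synthesis genes; INSIG proteins hold SCAP back when sterols are plentiful. When oxysterols are plentiful, the LXR nuclear receptors switch on the transporters ABCA1 and ABCG1, which export cholesterol. In T cells, activation is known to bring membrane growth and a demand for sterols.

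The stretches of 250 bases before the transcription starts of 5 genes that carry the results below are printed 5′ to 3′, from RefSeq on build GRCm38.p6. Capitals mark matches to 3 motifs sought on both strands: the sterol regulatory element TCACNCCAC, the CCAAT box CCAAT, which reads ATTGG on the other strand, and an LXR direct repeat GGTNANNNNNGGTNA. Hmgcs1, Idi1, Cyp51 and Lss are synthesis genes, and Abca1 is an LXR target.
Hmgcs1, chr13:119690101-119690350, plus strand: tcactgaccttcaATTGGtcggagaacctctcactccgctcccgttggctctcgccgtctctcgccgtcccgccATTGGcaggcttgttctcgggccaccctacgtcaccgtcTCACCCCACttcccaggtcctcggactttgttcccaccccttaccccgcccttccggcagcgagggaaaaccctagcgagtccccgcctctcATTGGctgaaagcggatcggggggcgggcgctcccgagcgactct
Idi1, chr13:8885356-8885605, plus strand: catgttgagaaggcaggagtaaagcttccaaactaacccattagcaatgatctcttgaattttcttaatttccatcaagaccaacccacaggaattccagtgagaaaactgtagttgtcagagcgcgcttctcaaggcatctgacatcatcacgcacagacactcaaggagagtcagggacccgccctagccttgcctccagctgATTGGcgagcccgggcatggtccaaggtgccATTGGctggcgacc
Cyp51, chr5:4104698-4104947, minus strand: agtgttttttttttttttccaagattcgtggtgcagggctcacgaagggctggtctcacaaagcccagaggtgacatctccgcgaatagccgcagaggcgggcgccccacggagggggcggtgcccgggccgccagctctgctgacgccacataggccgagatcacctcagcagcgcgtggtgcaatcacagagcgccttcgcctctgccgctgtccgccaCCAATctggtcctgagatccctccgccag
Lss, chr10:76531355-76531604, plus strand: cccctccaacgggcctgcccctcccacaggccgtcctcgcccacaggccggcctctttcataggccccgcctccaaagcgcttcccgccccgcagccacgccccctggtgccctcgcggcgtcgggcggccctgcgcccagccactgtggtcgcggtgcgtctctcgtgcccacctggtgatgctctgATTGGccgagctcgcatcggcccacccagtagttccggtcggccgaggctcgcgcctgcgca
Abca1, chr4:53159896-53160145, minus strand: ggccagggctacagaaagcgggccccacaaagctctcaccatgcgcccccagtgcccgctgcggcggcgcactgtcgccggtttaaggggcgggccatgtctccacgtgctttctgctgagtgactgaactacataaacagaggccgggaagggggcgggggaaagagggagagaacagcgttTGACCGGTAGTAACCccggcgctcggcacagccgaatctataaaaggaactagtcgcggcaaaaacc
None of the matches overlap. The Hmgcs1 promoter held the sterol element at position -137, counted back from the base before the start to the leftmost base of the match, and CCAAT boxes at -237, -176 and -45. CCAAT boxes lay at -45 and -14 in Idi1, at -29 in Cyp51 and at -62 in Lss, while Abca1 held the LXR repeat at -67 and no CCAAT box. RefSeq promoters of 300 bases, which add 50 bases after the start, were matched for 27 of the 33 genes. A CCAAT box was present in 22 of these 27 (81.5%) and in 15 of 16 synthesis genes (93.8%), against 41.1% of all 27025 genes with a promoter and 42.5% of those tested in all 12 libraries. Of the 4 LXR and efflux genes with a promoter, 1 held a CCAAT box (Mylip). The sterol element was found in 1 of 27 genes (3.7%, against 1.44% of all genes), and the LXR repeat in 2, Abca1 and Srebf1 (7.41%, against 0.818%). In the authors' build mm10 (GENCODE M21), Hmgcs1 lies at chr13:119690379-119708260, Idi1 at chr13:8885501-8892451, Cyp51 at chr5:4081145-4104746, Lss at chr10:76531588-76557138 and Abca1 at chr4:53030787-53159895. RefSeq and GENCODE differ in some starts, and by the GENCODE coordinates the CCAAT boxes of Idi1 and Cyp51 lie inside the gene. Motif matches describe the letters of these windows and are not binding sites.

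Libraries held 67333490 to 76891790 counts in stimulated and 63266480 to 72128430 in resting cells. By library totals alone, 3 counts, the floor used here, lie at 0.0390 to 0.0474 CPM (counts scaled to the library's size). CPM of the genes below also use TMM factors, so the floor is approximate beside them. Floors cover counting error only. Pkm, the targeted gene, was lower in KO in both conditions: 1056, 1065 and 1036 CPM in KO stimulated, against 2483, 2450 and 2521 CPM in WT stimulated libraries, and 172, 195 and 188 CPM in KO resting, against 424, 431 and 509 CPM in WT resting libraries. The 14 CD4 T cell markers were present in every group. Markers of other cells were present too, none of them at 0 in all libraries of a group. Xist, the RNA of the inactive X chromosome, lay at 941 to 1126 CPM in the 6 stimulated and at 0.0496 to 0.0867 CPM in the 6 resting libraries, while the Y-linked Ddx3y was at 0 in the stimulated and at 143 to 167 CPM in the resting ones. Condition, deposited table and these sex-linked transcripts therefore cannot be told apart, and 2 synthesis genes, Nsdhl and Ebp, lie on the X chromosome. In bulk RNA, fewer cells of a type and less RNA per cell cannot be told apart either.

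Stimulated cells held far more RNA of the cholesterol synthesis genes than resting cells, in both genotypes, and far less of the LXR receptor alpha and its targets. Summed over the 19 synthesis genes, the level was 1835 ± 28.7 CPM in KO stimulated and 2093 ± 75.0 CPM in WT stimulated, against 513 ± 18.6 CPM in KO resting and 498 ± 22.4 CPM in WT resting libraries (SD, n = 3 each). Summed over Abca1, Abcg1 and Mylip it was 14.2 ± 0.481 CPM in KO stimulated and 13.9 ± 0.686 CPM in WT stimulated, against 241 ± 17.5 CPM in KO resting and 289 ± 10.5 CPM in WT resting libraries (SD, n = 3 each). The ratio of the synthesis sum to the efflux sum was 123 to 135 in KO stimulated and 142 to 163 in WT stimulated, against 2.02 to 2.28 in KO resting and 1.65 to 1.76 in WT resting libraries. No stimulated library came near any resting library in either sum.

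**Figure D1:**
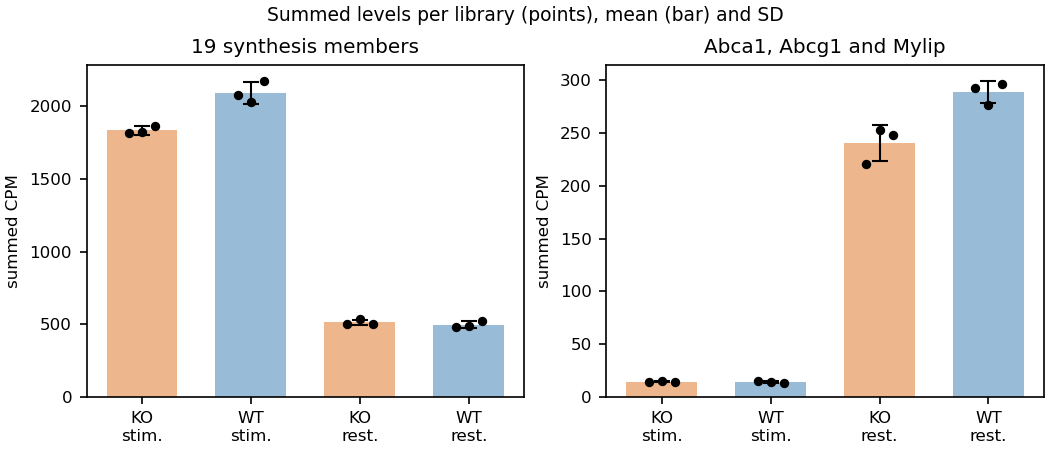
Summed CPM of the 19 synthesis genes (left) and of Abca1, Abcg1 and Mylip (right) in KO stimulated, WT stimulated, KO resting and WT resting libraries. Points are libraries, bars are means and error bars SD (n = 3). Synthesis sums are 1814 to 2175 CPM in stimulated and 484 to 535 CPM in resting libraries, and efflux sums are 13.4 to 14.8 CPM in stimulated and 221 to 297 CPM in resting libraries.

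In KO, 21 of the 33 genes rose on stimulation and 10 fell (edgeR's quasi-likelihood test, p-values adjusted by Benjamini and Hochberg's method, threshold 0.05). In WT, 22 rose and 11 fell. Change was common in this comparison: of all 17460 genes tested, 39.6% rose and 43.2% fell in KO, and 39.3% rose and 44.8% fell in WT. The median log2 fold change was 0.80 in KO and 0.90 in WT over the 33 genes, and -0.11 in KO and -0.14 in WT over all genes. Over the 19 synthesis genes it was 1.60 in KO and 1.77 in WT, with 17 higher and 2 lower in each genotype. Scaling by library totals alone moved the all-gene medians to -0.44 in KO and -0.47 in WT and the share of calls that were higher to 37.8% in KO, against 47.8% on the TMM scale; the fold changes given are on the TMM scale.

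**Figure D2:**
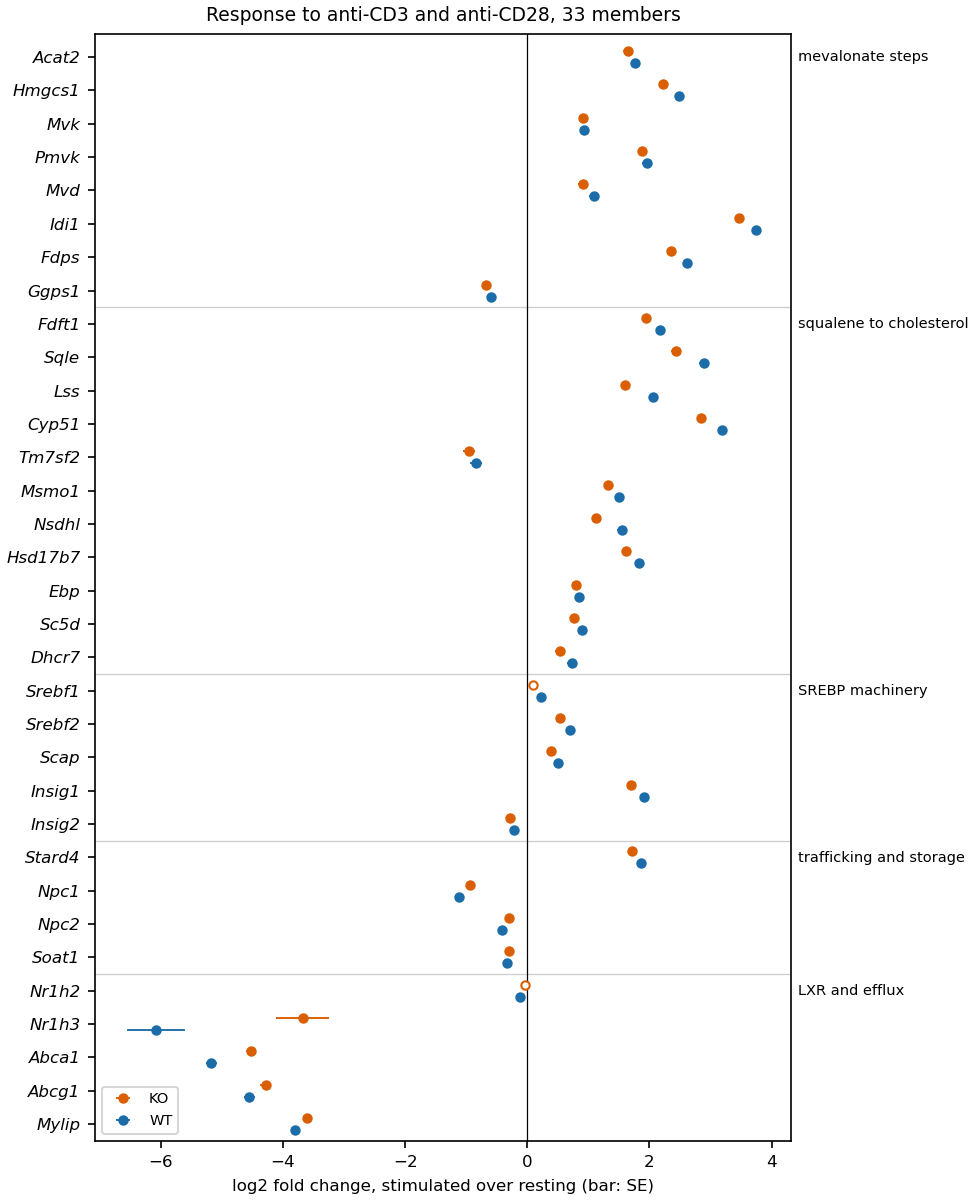
Log2 fold change of each of the 33 genes on stimulation (stimulated over resting) in KO (orange) and WT (blue), with bars of 1 SE and open points where the adjusted p missed 0.05. Most synthesis genes lie right of 0 and 4 of the 5 LXR and efflux genes lie far left of it; Srebf1 lies near 0 and turns negative (-0.24 in KO, -0.12 in WT) when library totals alone set the scale.

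Among the mevalonate steps, 7 of 8 genes rose in each genotype and Ggps1 fell. Idi1, which isomerizes isopentenyl diphosphate, rose most of the 33 genes, with 417, 423 and 421 CPM in KO stimulated and 461, 462 and 485 CPM in WT stimulated, against 36.6, 40.1 and 37.3 CPM in KO resting and 34.2, 34.2 and 36.0 CPM in WT resting libraries. That was 11.1-fold in KO (log2 3.47 ± 0.05 SE, edgeR adjusted p = 4.6e-14) and 13.5-fold in WT (3.75 ± 0.05, adjusted p = 2.8e-14). Per kilobase of exon, Idi1 also had the highest level of the 19 synthesis genes in stimulated cells, at 120 CPM per kb in KO and 134 in WT.

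Hmgcs1, the synthase that makes HMG-CoA at the entry of the pathway, had 249, 248 and 257 CPM in KO stimulated and 279, 278 and 299 CPM in WT stimulated, against 52.2, 57.8 and 51.3 CPM in KO resting and 50.2, 51.2 and 51.5 CPM in WT resting libraries. Stimulated and resting libraries were separated by a wide gap, and the fold was 4.67 in KO and 5.61 in WT. Fdps, which makes farnesyl diphosphate, rose 5.11-fold in KO and 6.15-fold in WT. The thiolase Acat2 rose 3.12-fold in KO and 3.41-fold in WT, and Pmvk, the second kinase of the mevalonate steps, 3.69-fold and 3.90-fold. Smaller rises were found for Mvk, the kinase that acts on mevalonate itself (1.88-fold in KO, 1.91-fold in WT), and for the decarboxylase Mvd (1.87-fold in KO, 2.13-fold in WT). Ggps1, which draws farnesyl diphosphate into the geranylgeranyl branch used to prenylate proteins, had 44.8, 42.3 and 42.5 CPM in KO stimulated and 44.5, 42.0 and 46.1 CPM in WT stimulated, against 67.0, 71.7 and 68.8 CPM in KO resting and 60.7, 64.7 and 74.6 CPM in WT resting libraries. Its log2 fold change was -0.68 ± 0.07 in KO (edgeR adjusted p = 8.1e-07) and -0.59 ± 0.07 in WT (adjusted p = 2.9e-06).

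From squalene to cholesterol, 10 of 11 genes rose in each genotype and Tm7sf2 fell. Cyp51, the demethylase of lanosterol, had 260, 259 and 271 CPM in KO stimulated and 314, 299 and 331 CPM in WT stimulated, against 35.6, 39.4 and 35.3 CPM in KO resting and 34.0, 34.5 and 35.4 CPM in WT resting libraries. It rose 7.16-fold in KO (log2 2.84 ± 0.06, edgeR adjusted p = 2.4e-13) and 9.09-fold in WT (3.18 ± 0.06, adjusted p = 1.1e-13). Squalene epoxidase (Sqle), the oxygen-requiring enzyme that commits squalene to sterols, had 113, 112 and 117 CPM in KO stimulated and 124, 128 and 134 CPM in WT stimulated, against 20.2, 22.0 and 21.2 CPM in KO resting and 16.0, 16.4 and 19.7 CPM in WT resting libraries, a rise of 5.38-fold in KO and 7.42-fold in WT.

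Lss, which folds the epoxide into lanosterol, had 75.3, 72.4 and 75.1 CPM in KO stimulated and 91.0, 81.0 and 93.0 CPM in WT stimulated, against 24.2, 25.4 and 23.9 CPM in KO resting and 20.2, 20.4 and 22.9 CPM in WT resting libraries. Its rise was 3.03-fold in KO and 4.18-fold in WT. Squalene synthase (Fdft1) rose 3.84-fold in KO and 4.53-fold in WT. Of the enzymes that trim and rearrange the sterol ring, Hsd17b7 rose 3.08-fold in KO and 3.55-fold in WT, Msmo1 2.50-fold and 2.82-fold, and Nsdhl 2.19-fold and 2.92-fold. The isomerase Ebp, the desaturase Sc5d and the reductase Dhcr7, which act late, rose least: 1.74-fold, 1.70-fold and 1.44-fold in KO, and 1.80-fold, 1.87-fold and 1.65-fold in WT. Tm7sf2, a sterol reductase, had 5.07 to 5.52 CPM in KO stimulated and 5.18 to 6.67 CPM in WT stimulated, against 10.1 to 10.7 CPM in KO resting and 9.96 to 11.5 CPM in WT resting libraries, and fell in KO by 0.96 ± 0.10 (log2) and in WT by 0.83 ± 0.10.

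The counts behind some of these genes are less certain than the rest. RSEM gave values that are not whole in 12 of 12 libraries for Idi1, Fdps and Tm7sf2, in 11 for Acat2, in 8 for Fdft1 and in 4 for Ggps1. Exons of Fdps overlap the gene model Gm43738 on the same strand over 1124 bases, and those of Tm7sf2 overlap Vps51 over 532 bases. Hmgcs1, Idi1, Ggps1, Fdft1, Lss and Cyp51 share exon bases with a gene on the opposite strand, Arid4b for Ggps1, Ctsb for Fdft1 and Akap9 for Cyp51 among them; the library kit is stranded, but the sources used here do not say if the strand entered the counting. Scap, Srebf1 and Npc1 also share bases with a gene on the opposite strand, Nr1h3 shares 34 bases with Gm13783 on its own strand, and Nr1h2 has a processed pseudogene, Nr1h2-ps.

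Of the 5 genes of the sterol sensing machinery, 3 rose and 1 fell in KO, and 4 rose and 1 fell in WT, with Insig1 rising most. Insig1, an SREBP target that retains SCAP, had 109, 107 and 109 CPM in KO stimulated and 126, 121 and 130 CPM in WT stimulated, against 32.9, 34.7 and 32.7 CPM in KO resting and 35.9, 31.6 and 33.2 CPM in WT resting libraries. It rose 3.25-fold in KO (log2 1.70 ± 0.05, edgeR adjusted p = 4.5e-12) and 3.74-fold in WT (1.90 ± 0.05, adjusted p = 1.6e-12). Its paralog Insig2 fell in KO by 0.28 ± 0.06 (log2) and in WT by 0.22 ± 0.06, but the call in WT was lost without both WT resting libraries that were highest in myeloid markers, a setting chosen after seeing the data. The Insig1 level was 6.30 to 6.71 times that of Insig2 in KO stimulated and 6.79 to 7.39 times in WT stimulated, against 1.56 to 1.75 times in KO resting and 1.54 to 1.70 times in WT resting libraries, on the CPM scale and not corrected for length. Srebf2, which encodes the SREBP of sterol synthesis, rose 1.45-fold in KO and 1.62-fold in WT, and Scap 1.32-fold and 1.42-fold; with library totals alone the Scap call in KO was lost (log2 0.07, edgeR adjusted p = 0.13). Srebf1 had 102, 99.1 and 105 CPM in KO stimulated and 109, 106 and 113 CPM in WT stimulated, against 92.8, 98.2 and 97.0 CPM in KO resting and 88.6, 89.6 and 104 CPM in WT resting libraries. Srebf1 missed the threshold in KO (0.09 ± 0.06, edgeR adjusted p = 0.16) and rose by 0.22 ± 0.06 in WT (adjusted p = 0.0037), but it turned to -0.24 in KO and -0.12 in WT when library totals alone set the scale, and the call in WT was lost without both WT resting libraries (0.07 ± 0.05, adjusted p = 0.23).

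Of the trafficking and storage genes, 1 of 4 rose and 3 of 4 fell in each genotype. Stard4, a soluble sterol carrier, had 111, 112 and 117 CPM in KO stimulated and 128, 116 and 129 CPM in WT stimulated, against 34.5, 34.4 and 35.0 CPM in KO resting and 32.4, 32.6 and 37.3 CPM in WT resting libraries, and rose 3.27-fold in KO and 3.64-fold in WT. Npc1, which exports cholesterol from lysosomes, had 35.2, 35.3 and 36.4 CPM in KO stimulated and 35.3, 32.7 and 33.5 CPM in WT stimulated, against 68.2, 67.4 and 68.3 CPM in KO resting and 75.5, 70.7 and 73.2 CPM in WT resting libraries. In KO it fell by 0.93 ± 0.04 (log2) and in WT by 1.11 ± 0.04. Its lysosomal partner Npc2 fell by 0.30 ± 0.06 in KO and by 0.41 ± 0.06 in WT, and Soat1, which esterifies cholesterol for storage, by 0.31 ± 0.05 and 0.33 ± 0.05.

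Nr1h3 and the LXR targets Abca1, Abcg1 and Mylip had the 4 largest falls of the 33 genes in each genotype. Abca1, the transporter that loads cholesterol onto apolipoproteins, had 1.98, 2.01 and 1.83 CPM in KO stimulated and 1.48, 1.38 and 1.72 CPM in WT stimulated, against 41.4, 47.8 and 44.3 CPM in KO resting and 57.7, 53.6 and 54.0 CPM in WT resting libraries. It was 22.9-fold lower in KO stimulated cells (log2 -4.52 ± 0.08, edgeR adjusted p = 1.7e-13) and 36.1-fold lower in WT stimulated cells (-5.17 ± 0.09, adjusted p = 8.4e-14). Abcg1, a transporter that passes cholesterol to lipoprotein particles, had 6.02, 6.59 and 6.43 CPM in KO stimulated and 6.98, 6.24 and 6.20 CPM in WT stimulated, against 109, 130 and 131 CPM in KO resting and 155, 141 and 159 CPM in WT resting libraries, 19.5-fold lower in KO and 23.4-fold lower in WT. Mylip, a ubiquitin ligase that removes lipoprotein receptors, had 6.10, 6.17 and 5.59 CPM in KO stimulated and 6.18, 5.95 and 5.44 CPM in WT stimulated, against 69.8, 74.7 and 72.7 CPM in KO resting and 80.4, 81.9 and 84.3 CPM in WT resting libraries, 12.2-fold lower in KO and 14.0-fold lower in WT. For all 3 targets every stimulated library lay far below every resting library.

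The LXR receptors differed from each other. Nr1h3 (LXR alpha) had 0.727, 0.868 and 0.824 CPM in KO stimulated and 0.527, 0.349 and 0.456 CPM in WT stimulated, against 10.8, 10.1 and 10.1 CPM in KO resting and 49.8, 26.9 and 13.9 CPM in WT resting libraries. Its log2 fold change was -3.68 ± 0.43 in KO (edgeR adjusted p = 2.2e-05) and -6.08 ± 0.48 in WT (adjusted p = 9.0e-07). Nr1h2 (LXR beta), at 84.5 to 91.7 CPM in stimulated and 86.0 to 96.5 CPM in resting libraries, missed the threshold in KO (-0.03 ± 0.04, edgeR adjusted p = 0.51) and fell by 0.11 ± 0.04 in WT (adjusted p = 0.031), a call lost without WT resting replicate 2 or 3 or any 1 of the 3 WT stimulated libraries. Per kilobase of exon, Nr1h2 lay at 25.3 to 27.5 CPM per kb in all 4 groups, while Nr1h3 lay at 0.321 in KO stimulated, 0.177 in WT stimulated, 4.11 in KO resting and 12.01 in WT resting cells.

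Most cell type markers also fell on stimulation, those of CD4 T cells included. The marker sums are scaled by library totals alone, without the TMM factors used for single genes. The 12 myeloid markers summed to 116 to 125 CPM in KO stimulated and 56.2 to 90.4 CPM in WT stimulated, against 1392 to 1394 CPM in KO resting and 1421 to 3576 CPM in WT resting libraries, and 12 of 12 fell on stimulation in each genotype. The 10 B cell markers summed to 410 to 463 CPM in KO stimulated and 206 to 331 CPM in WT stimulated, against 765 to 969 CPM in KO resting and 540 to 912 CPM in WT resting libraries; 8 of 10 fell and 1, Fcer2a, rose in each genotype. The 14 CD4 T cell markers summed to 3046 to 3115 CPM in KO stimulated and 2898 to 2968 CPM in WT stimulated, against 7369 to 7593 CPM in KO resting and 6291 to 7304 CPM in WT resting libraries, with 11 lower and 3 higher in KO, and 10 lower and 3 higher in WT. The part of these markers in the fall of the LXR genes was not tested. The log2 changes in WT were also fitted without replicates 1 and 2, the WT resting libraries highest in myeloid markers. They were -4.96 ± 0.17 for Nr1h3, -5.14 ± 0.10 for Abca1, -4.61 ± 0.09 for Abcg1 and -3.85 ± 0.07 for Mylip. The 1 WT resting library left had a myeloid sum of 1421 CPM, still far above the WT stimulated libraries. This setting therefore does not remove the fall of the markers.

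**Figure D3:**
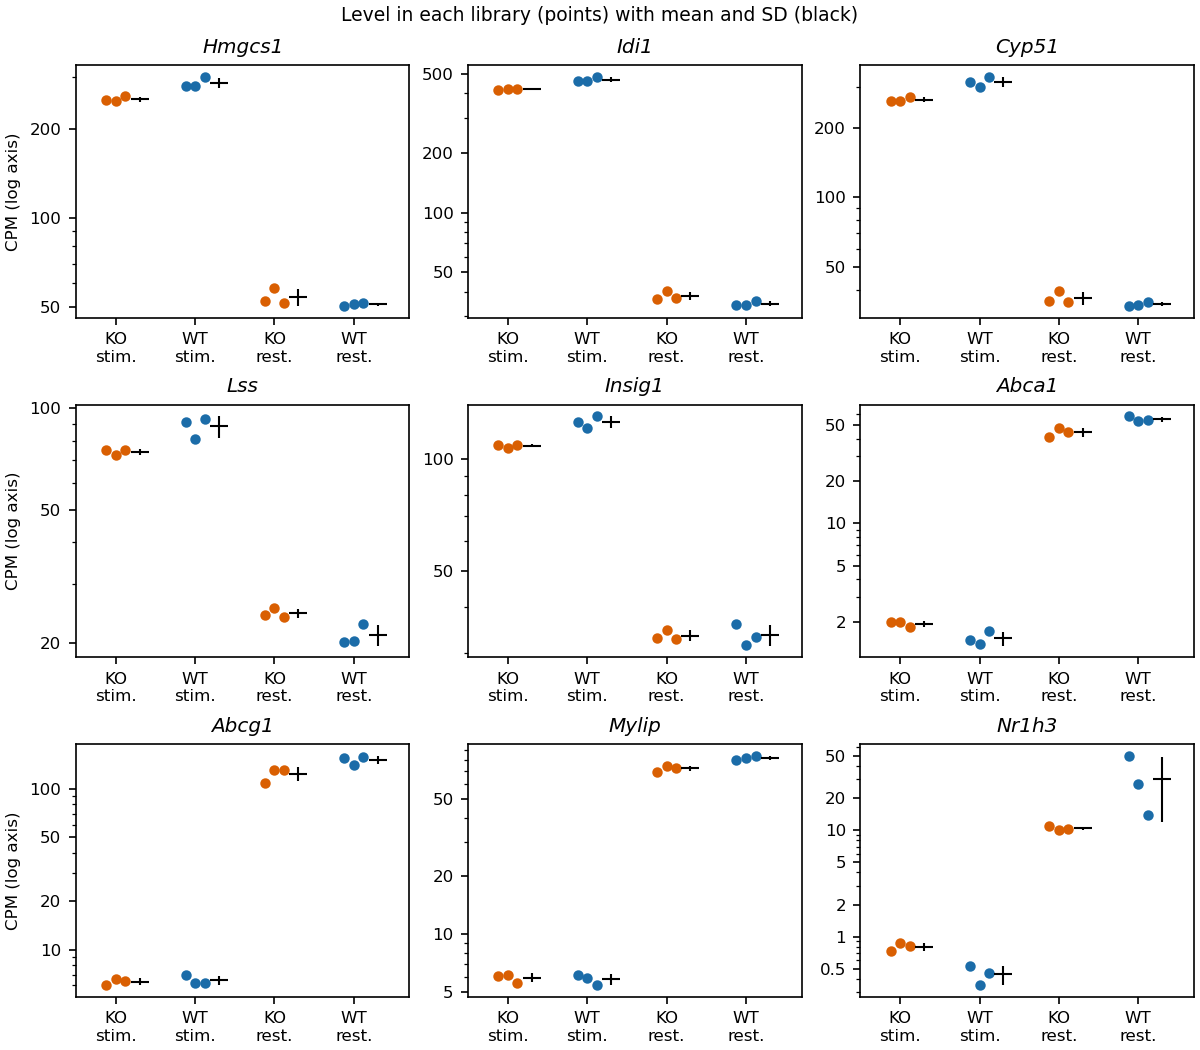
CPM of 9 genes in each library, on a log axis, in KO stimulated, WT stimulated, KO resting and WT resting cells; points are libraries, and the black mark beside them is the mean with SD (n = 3). Hmgcs1, Idi1, Cyp51, Lss and Insig1 are high in stimulated and Abca1, Abcg1, Mylip and Nr1h3 in resting cells, and Nr1h3 spreads from 13.9 to 49.8 CPM among the WT resting libraries.

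Around these genes, 82 others of the sterol, isoprenoid, lipid transport, LXR and fatty acid pathways were read from the same fit, and 76 were tested. On stimulation 39 rose and 26 fell in KO, and 37 rose and 28 fell in WT. That was 85.5% of the 76 in each genotype, beside 82.9% of all genes tested in KO and 84.1% in WT. Of 12 genes of the isoprenoid branches, 11 rose and 1 fell in each genotype; of 14 LXR partners, targets and oxysterol enzymes tested, 3 rose and 8 fell in KO, and 3 rose and 9 fell in WT. Of 11 fatty acid genes tested, 8 rose and 3 fell in KO, and 7 rose and 3 fell in WT. The largest fitted rises in both genotypes were those of Idi2, a paralog of Idi1, of Tmem97, a sterol-binding membrane protein, and of Ch25h, which makes an oxysterol. Idi2 had 3.38 to 4.30 CPM in KO stimulated and averaged 2.29 ± 0.397 CPM in WT stimulated (SD, n = 3), against 0.0248 to 0.0502 CPM in KO resting and 0 to 0.0530 CPM in WT resting libraries, which is near the floor. Tmem97 rose by 4.23 ± 0.12 on the log2 scale in KO and by 4.53 ± 0.12 in WT. Ch25h stayed low, with 0.255 to 0.281 CPM in KO stimulated and 0.286 to 0.527 CPM in WT stimulated, against 0 to 0.0502 CPM in KO resting and 0.0138 to 0.0397 CPM in WT resting libraries.

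The largest fitted falls in KO were those of the LXR partner Rxrg, the oxysterol enzyme Cyp27a1 and the transporter Abcg4. In WT they were those of Cyp27a1, Rxrg and Cav1, the coat protein of caveolae. Fitted values of genes near 0 counts depend on the prior count, so the order of Idi2, Ch25h, Rxrg, Cyp27a1 and Abcg4 among the pathway genes is not established. Cyp27a1 had 0.0450 to 0.0992 CPM in KO stimulated and 0 to 0.0159 CPM in WT stimulated, against 10.4 to 12.4 CPM in KO resting and 8.82 to 17.7 CPM in WT resting libraries. Rxrg was at 0 counts in all 6 stimulated libraries, and at 0.347 to 0.414 CPM in KO resting and 0.344 to 0.504 CPM in WT resting libraries. Cav1 fell by 3.83 ± 0.31 in KO and by 5.32 ± 0.36 in WT, on the log2 scale. The Abcg4 call in KO rests on KO resting replicate 1, at 6.82 CPM, where the other KO resting libraries had 0.0251 and 0.0124 CPM.

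Between the genotypes, stimulated KO cells held slightly less RNA of the synthesis genes than stimulated WT cells. By edgeR's quasi-likelihood test 11 of the 33 genes were lower in KO, beside 1.40% of all 15090 genes tested, and 0 were higher, beside 3.37%. Of the 11, 10 are synthesis genes and the other is Insig1. The log2 fold changes ran from -0.27 (Mvd) to -0.15 (Idi1), with edgeR adjusted p from 0.0091 to 0.048. All 19 synthesis genes had a log2 fold change below 0, with a median of -0.17, against -0.00 over all genes. In 19 of the 33 genes every KO library lay below every WT library, as in 14.6% of all genes, and in 3 every KO library lay above, as in 13.4%. For higher levels in KO, 3 genes had an unadjusted edgeR p under 0.05 and DESeq2 called 0. For lower levels these counts were 19 and 15. Of all 15090 genes tested, 3103 had an unadjusted edgeR p under 0.05 in either direction, and DESeq2 called 726 higher and 407 lower. Over all genes 70.7% of edgeR's calls were higher in KO, and 82.5% when library totals alone set the scale.

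**Figure D4:**
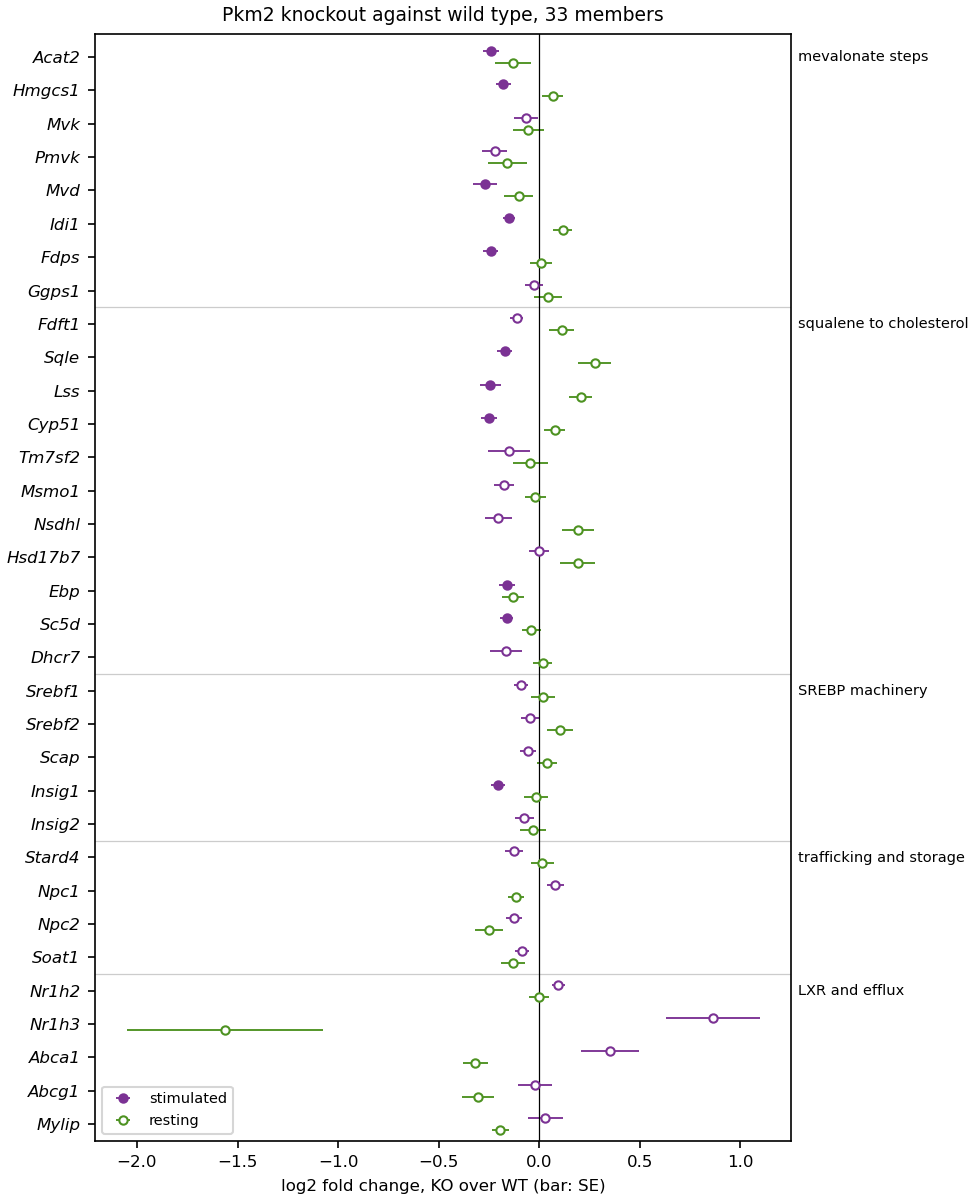
Log2 fold change of each of the 33 genes, KO over WT, in stimulated (purple) and resting (green) cells, with bars of 1 SE and filled points where the adjusted p passed 0.05. In stimulated cells the 19 synthesis genes lie at or left of 0, from -0.27 to -0.00, and in resting cells they lie on both sides, from -0.16 to 0.28.

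Of the mevalonate steps, 5 of 8 genes were lower in KO stimulated cells. Mvd had 24.4, 25.1 and 26.1 CPM in KO stimulated, against 30.6, 27.9 and 32.9 CPM in WT stimulated libraries, and fell by 0.27 ± 0.06 on the log2 scale. Fdps had 134, 137 and 145 CPM in KO stimulated, against 163, 161 and 171 CPM in WT stimulated libraries, and fell by 0.24 ± 0.04. Acat2 had 64.6, 63.7 and 67.7 CPM in KO stimulated, against 78.4, 74.8 and 79.4 CPM in WT stimulated libraries, and fell by 0.24 ± 0.04. None of these ranges overlapped. With the libraries given above, Hmgcs1 fell by 0.18 ± 0.04 and Idi1 by 0.15 ± 0.03. Pmvk, at -0.22 ± 0.06, missed the threshold (edgeR adjusted p = 0.075) although its libraries did not overlap, as did Mvk (-0.07 ± 0.06) and Ggps1 (-0.03 ± 0.05), whose libraries overlapped.

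From squalene to cholesterol, 5 of 11 genes were lower in KO stimulated cells. Cyp51 fell by 0.25 ± 0.04 (95% interval -0.33 to -0.17, edgeR adjusted p = 0.010), Lss by 0.24 ± 0.05 and Sqle by 0.17 ± 0.04. The interval uses a normal approximation, which can be too narrow for so few libraries. Sc5d had 81.5, 83.6 and 81.8 CPM in KO stimulated, against 92.6, 90.0 and 94.7 CPM in WT stimulated libraries, and fell by 0.16 ± 0.03. Ebp, at 46.9, 49.4 and 47.0 CPM in KO stimulated, against 53.0, 55.9 and 52.1 CPM in WT stimulated libraries, fell by 0.16 ± 0.04. In all 5 every KO library was below every WT library. Fdft1 (-0.11 ± 0.03), Msmo1 (-0.17 ± 0.05) and Nsdhl (-0.20 ± 0.07) missed the threshold without overlap of their libraries. Dhcr7 (-0.16 ± 0.08), Tm7sf2 (-0.15 ± 0.10) and Hsd17b7 (-0.00 ± 0.05) missed it with overlap.

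Insig1, whose level follows SREBP activity in many cells, fell by 0.20 ± 0.04 in KO stimulated cells (edgeR adjusted p = 0.014), with no overlap between genotypes. The other genes of the sensing machinery missed the threshold, from -0.09 ± 0.04 for Srebf1 to -0.04 ± 0.04 for Srebf2. So did the trafficking genes, with -0.12 ± 0.04 for Stard4, -0.12 ± 0.04 for Npc2, -0.08 ± 0.03 for Soat1 and 0.08 ± 0.04 for Npc1. Of the LXR genes, Nr1h3 (0.86 ± 0.23, adjusted p = 0.067), Abca1 (0.35 ± 0.14, adjusted p = 0.20) and Nr1h2 (0.10 ± 0.03, adjusted p = 0.11) missed it with every KO library above every WT library. Abcg1 (-0.02 ± 0.08) and Mylip (0.03 ± 0.09) overlapped.

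The 11 calls depended on single libraries, on the scale, on the libraries fitted and on the covariate. Their number was 7 with library totals alone and 2 with all 12 libraries in the fit. It was 0 without KO stimulated replicate 1 or 2, 3 without KO stimulated replicate 3, 7 without WT stimulated replicate 1, 4 without WT stimulated replicate 3 and 15 without WT stimulated replicate 2, where 17 to 19 of the 19 synthesis genes stayed below 0. Beside them, 6 of 12 myeloid markers were higher in KO stimulated cells (3.37% of all genes were), their median log2 difference at 0.78. All 10 B cell markers lay higher in every KO library, with a median of 0.66 and 0 called. Medians were also above 0 for CD8 T (0.75, 1 of 2 called), dendritic (0.97, 1 of 2 tested), NK (0.47, 0 of 4) and neutrophil markers (0.52, 0 of 3 tested). The 5 erythroid markers tested lay below 0, with a median of -1.05 and 0 called. With the mean log2 CPM of the myeloid and B cell lists as a covariate, 0 of the 33 genes passed, 13 of 19 synthesis genes were below 0 and their median was -0.14. The median SE of the 33 genes was 0.076 with that covariate and 0.045 without it.

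In resting cells no gene of the set passed the test between the genotypes, and the synthesis genes showed no common direction. Of all 16637 genes tested, 0.0180% were called higher in KO and 0.0180% lower. Of the 33 genes, 4 higher and 6 lower had an unadjusted edgeR p under 0.05, and DESeq2 called 0 higher and 4 lower (Abca1, Abcg1, Mylip and Npc2). Over all 16637 genes, 2284 had an unadjusted edgeR p under 0.05 in either direction, and DESeq2 called 131 higher and 387 lower. Of the synthesis genes 11 lay above and 8 below 0, with a median of 0.02. The 95% intervals of their log2 differences, by the same normal approximation, lay within -0.34 and 0.44. Every KO library lay above every WT library for 5 genes, all of them synthesis genes, as in 9.86% of all genes. Every KO library lay below every WT library for 6 genes, as in 10.0% of all genes, and 4 of these 6 are LXR and efflux genes. Whether either count exceeds its share over all genes was not tested, nor was the spread of these genes over the roles.

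The 5 with higher KO libraries were Sqle (0.28 ± 0.08), Lss (0.21 ± 0.06), Nsdhl (0.19 ± 0.08), Hsd17b7 (0.19 ± 0.09) and Idi1 (0.12 ± 0.05), with edgeR adjusted p from 0.29 to 0.40. Nsdhl had 13.2 to 13.9 CPM in KO resting, against 10.8 to 12.5 CPM in WT resting libraries. The 6 with lower KO libraries were Nr1h3 (-1.56 ± 0.49), Abca1 (-0.32 ± 0.06), Abcg1 (-0.30 ± 0.08), Mylip (-0.19 ± 0.04), Npc2 (-0.25 ± 0.07) and Npc1 (-0.12 ± 0.04), with adjusted p from 0.20 to 0.32. Npc2 had 332, 370 and 356 CPM in KO resting, against 406, 388 and 455 CPM in WT resting libraries.

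The myeloid markers lay on the same side: 12 of 12 had a log2 fold change below 0 in KO resting cells, with a median of -0.99 and 0 called, while 10 of 10 B cell markers lay above 0, with a median of 0.23 and 0 called. The myeloid sum was 1392, 1392 and 1394 CPM in KO resting, against 3576, 2064 and 1421 CPM in WT resting libraries. Nr1h3 followed the same order in the WT libraries, at 49.8, 26.9 and 13.9 CPM, while Abca1, Abcg1 and Mylip did not. Without WT resting replicates 1 and 2, which leaves 1 WT library that is assumed to vary like the KO libraries, the log2 fold change of Nr1h3 was -0.41 ± 0.11, that of Abca1 -0.26 ± 0.07, that of Abcg1 -0.34 ± 0.11 and that of Mylip -0.20 ± 0.05, and 0 genes of the set passed. The same setting left Sqle at 0.12 ± 0.07 and Lss at 0.12 ± 0.07. With the marker covariate Nr1h3 alone of the 33 genes passed (-0.87 ± 0.12, edgeR adjusted p = 0.021), and Abca1 was at -0.28 ± 0.06.

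**Figure D5:**
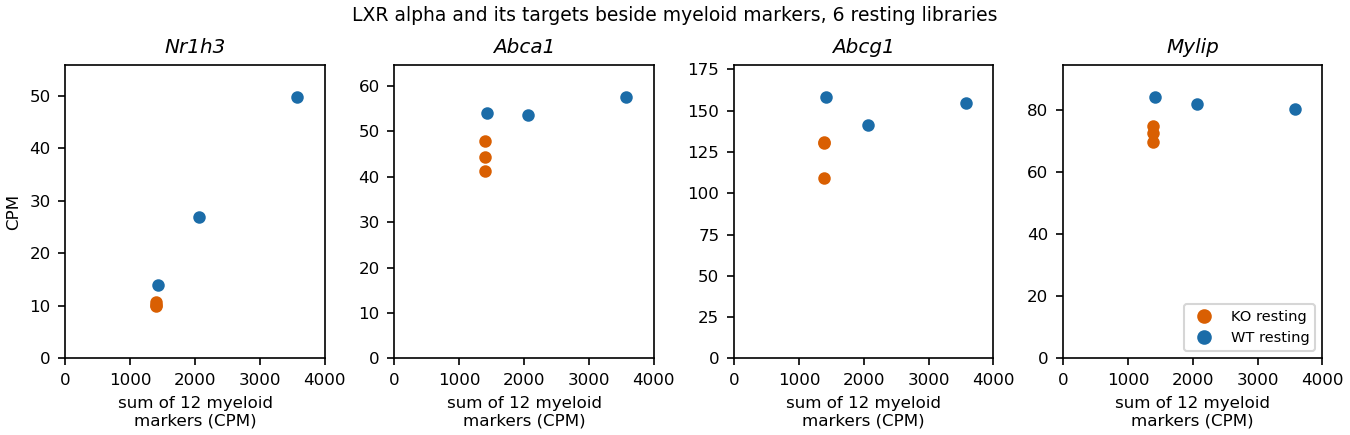
CPM of Nr1h3, Abca1, Abcg1 and Mylip against the summed CPM of 12 myeloid markers in the 3 KO (orange) and 3 WT (blue) resting libraries. Marker sums are scaled by library totals alone, each point is a library and all axes start at 0. Nr1h3 is highest where the marker sum is highest (49.8 CPM at 3576). All 4 genes are higher in every WT than in every KO library. The part of the myeloid markers in this was not tested beyond the settings given above.

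The response to stimulation differed between the genotypes for 2 of the 33 genes. The difference of the responses, KO minus WT, was higher for 1 gene, beside 0.556% of all 17460 genes tested, and lower for 1, beside 0.137%. Lss rose less in KO, 3.03-fold against 4.18-fold in WT (difference -0.47 ± 0.09 on the log2 scale, edgeR adjusted p = 0.032). Abca1 fell less in KO, with a log2 fold change of -4.52, against -5.17 in WT (difference 0.66 ± 0.11, adjusted p = 0.027). All 19 synthesis genes had a difference below 0, with a median of -0.20, against -0.01 over all genes, and all 5 LXR and efflux genes had a difference above 0, with a median of 0.27. An unadjusted edgeR p under 0.05 was found for 5 genes above and 9 below 0, and DESeq2 called 2 and 9. Over all 17460 genes, 2772 had an unadjusted edgeR p under 0.05 in either direction, and DESeq2 called 606 higher and 397 lower. Sqle (-0.46 ± 0.10, adjusted p = 0.056), Cyp51 (-0.34 ± 0.07, adjusted p = 0.059), Idi1 (-0.29 ± 0.06, adjusted p = 0.065) and Nsdhl (-0.41 ± 0.10, adjusted p = 0.085) missed the threshold. These differences rest on the same libraries as the comparisons above. Of all edgeR calls in this comparison 80.2% were higher in KO, and 69.6% with DESeq2's size factors.

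Single libraries decided both calls. Lss passed without WT resting replicate 1 or 3 or WT stimulated replicate 2 and missed the threshold without any other 1 library, with differences from -0.52 to -0.42 and adjusted p up to 0.098. Abca1 missed it without WT resting replicate 2, KO resting replicate 1 or 3, WT stimulated replicate 1 or any 1 KO stimulated library, with differences from 0.59 to 0.75 and adjusted p up to 0.088, and under the replicate block (0.66 ± 0.12, adjusted p = 0.052). Without both WT resting libraries highest in myeloid markers the difference was -0.35 ± 0.09 for Lss and 0.63 ± 0.13 for Abca1, neither past the threshold, 16 of 19 synthesis genes lay below 0, and Nr1h3 passed (1.29 ± 0.22, adjusted p = 0.030). The myeloid markers had a median difference of 1.69, above 0 in 12 of 12 and called in 1, and their part in the Abca1 and Nr1h3 differences was not tested beyond these settings.

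Of the 82 other pathway genes, 73 were tested between the genotypes in each condition. Calls in stimulated cells made up 5.48% of the 73, beside 4.76% of all 15090 genes tested (3.37% higher and 1.40% lower). In stimulated cells 1 was higher in KO, Idi2 (0.79 ± 0.15, edgeR adjusted p = 0.020), and 3 were lower: Elovl6, an elongase of fatty acids (-0.38 ± 0.07), Tmem97 (-0.19 ± 0.04) and Por, the electron donor of cytochrome P450 enzymes (-0.13 ± 0.03). Elovl6 had 41.9, 41.1 and 43.0 CPM in KO stimulated, against 58.8, 48.6 and 57.4 CPM in WT stimulated libraries. None of the 73 passed in resting cells, where 8 had an unadjusted p under 0.05, as had 2284 of all 16637 genes tested.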

How the data were processed

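The values the authors deposited are expected counts of genes from RSEM, which need not be whole, in 1 table for resting and 1 for stimulated libraries. Build mm10, RSEM 1.3.1, STAR 2.7.0f, cutadapt 1.18 and bcl2fastq 2.20 come from the submitters' processing notes. Gene identifiers were matched to GENCODE M21 (55450 of 55450).

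Counts were rounded, filtered with filterByExpr (minimum count 10, total 15), normalized with TMM factors, and fitted in edgeR 4.0.16 (R 4.3.3) with its robust quasi-likelihood F-test, Benjamini-Hochberg adjustment over all genes, threshold 0.05. KO and WT were compared within the 6 libraries of each condition; responses to stimulation came from 1 fit of all 12 libraries. The tests were also run on simulated counts with the same dispersion for every gene. Those counts lack the uneven spread of the real replicates, so the run does not show how the tests perform here. CPM of genes uses the TMM-scaled library size. Marker sums and the marker covariate use CPM scaled by library totals alone, without TMM factors. Replicates of a group differed by more than sampling noise (chi-square per degree of freedom 3.79 to 132), so all were kept.

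The members and lists were chosen with earlier results of these data known. All members are named; of the other pathway genes, up to 3 per direction and comparison with the largest change that passed. A gene that this rule names is not reported here. Promoters come from a RefSeq table (GRCm38.p6). Alternatives were DESeq2's size factors, library totals alone, the DESeq2 1.42.0 Wald test, no filter, 1 CPM in 3 libraries, a non-robust fit, the replicate block, other sets of libraries, each library left out, and a covariate of marker levels. Leaving out both WT resting libraries highest in myeloid markers was added after seeing the data.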

Additional observations from a re-analysis of the deposited data

Results flagged for a closer look

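The responses of 2 genes to stimulation differed between the genotypes by the test of the difference itself. For Lss the response in KO minus that in WT was -0.47 on the log2 scale, and for Abca1 it was 0.66. Each passed the adjusted threshold with all 12 libraries and lost the call when some single libraries were left out, as given above.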

How the results depend on the processing

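The stimulation counts stayed within 1.5 times of their values under every alternative, and the leave-one-out counts were 21 higher and 10 lower in KO, and 22 higher and 10 to 11 lower in WT. Srebf1 turned to -0.24 in KO and -0.12 in WT with library totals alone. For KO against WT in resting cells, the number lower (0) was 4 with the DESeq2 Wald test and 1 with the marker covariate, and leaving out any 1 library gave 0 to 0. In stimulated cells the number lower (11) was 7 with library totals alone, 0 with the marker covariate, 2 with all 12 libraries in the fit, and 0 to 15 with 1 library left out. For the difference of responses, the number higher (1) was 2 with the DESeq2 Wald test, 0 with the replicate block and 0 to 2 with 1 library left out. The number lower (1) was 3 with DESeq2's size factors, 4 with library totals alone, 3 without a filter, 4 with the filter of 1 CPM in 3 libraries, 9 with the DESeq2 Wald test, 2 with the replicate block, 0 without both WT resting libraries highest in myeloid markers, and 0 to 9 with 1 library left out. Nr1h3 was not tested in stimulated cells under the 1 CPM filter. Over all genes, calls in resting cells were 3 higher and 3 lower, against 131 and 387 with DESeq2, 61 and 243 with the covariate, 69 and 92 with all 12 libraries, 13 and 27 without a filter, and 1 to 4 and 1 to 14 with 1 library left out. In stimulated cells they were 508 and 211, against 726 and 407 with DESeq2, 30 and 28 with the covariate, 191 and 28 with all 12 libraries, 567 and 120 with library totals alone, 661 and 352 without a filter, and 110 to 917 and 18 to 491 with 1 library left out. They were for the difference of responses 97 and 24, against 606 and 397 with DESeq2, 156 and 48 with the 1 CPM filter, 132 and 44 with library totals alone, 87 and 38 with DESeq2's size factors, 83 and 12 with the replicate block, 122 and 5 without both WT resting libraries, and 24 to 905 and 2 to 741 with 1 library left out; the causes were not tested. Whether the replicate numbers pair the libraries is not settled. Deviations of same-numbered KO and WT resting libraries correlated at 0.33, -0.11 and 0.27 for replicates 1, 2 and 3. The highest correlations with another number were 0.13, 0.25 and -0.07. Between stimulated libraries the same-numbered values were -0.03 to 0.02, and the highest with another number 0.01 to 0.03. Under the replicate block 14 genes were lower in KO stimulated cells and 0 in resting cells.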
